A study of Mus musculus with 12 samples.

Results

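Ptf1a, Rbpjl, Nr5a2, Bhlha15 and Xbp1 encode transcription factors that hold the enzyme-secreting acinar cell of the exocrine pancreas in its differentiated state. These 5 genes, of 22180 measured, were followed across 12 Affymetrix arrays of mouse pancreatic cells, and the order and depth of their loss were compared. Each gene was read from 1 probe set that carries its symbol alone, the one with the highest mean over the 12 arrays. Their probe sets are 17367376 for Ptf1a, 17379401 for Rbpjl, 17227515 for Nr5a2, 17444481 for Bhlha15 and 17246967 for Xbp1. All 5 were measured, and only Ptf1a had a second probe set of its own, which is described below.

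There were 4 groups of 3 arrays, and the strain is given as C57Bl6/J wildtype for all of them. Adult acinar cells and embryonic acinar cells had been set free by digestion of the tissue and lysed for RNA without culture. Cultures in acinar-to-ductal metaplasia (ADM), the change in which acinar cells take on features of duct cells, had spent 7 days embedded in collagen with 50 ng/ml of TGF-alpha, which signals through the EGF receptor. Tumor cells were of low passage and had been grown in standard medium. The labels give no age or embryonic day and no driver mutation, and they do not say whether replicates are separate animals or cultures or whether the tumor arrays come from more than 1 line, although the descriptions of the 3 tumor samples share 1 code. The p-values therefore measure the spread between these arrays, which may be technical. In bulk RNA of this kind, fewer acinar cells and less RNA per acinar cell cannot be told apart.

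PTF1 is a trimer of PTF1A, a class A basic helix-loop-helix (bHLH) partner such as TCF3 or TCF12, and RBPJ or its acinar relative RBPJL, and it binds an E-box next to a TTCCCA-type box in front of digestive enzyme genes. In the embryo the trimer holds RBPJ, the effector of Notch signalling, and in the mature acinar cell RBPJL takes its place. NR5A2 is an orphan nuclear receptor that acts with PTF1 on enzyme genes. BHLHA15, also called MIST1, drives genes of granule maturation and cell polarity, and XBP1 drives genes of the endoplasmic reticulum (ER) that fold and export secretory protein.

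Because the trimer reads an E-box (CANNTG) together with a TTCCCA box, the members' own start regions were searched for these letters on both strands. Windows of 300 bases, from 250 bases before to 50 bases after a start, came from RefSeq on GRCm38.p6, with 6 windows for the 5 genes. A stretch of 30 bases is shown for each gene, 5′ to 3′ on the gene's strand, with an E-box or a TTCCCA box (TGGGAA on the other strand) in capitals.
Ptf1a, chr2:19445485-19445514, plus strand: cgcactggcTGGGAActgaggacagcgtcc
Rbpjl, chr2:164403081-164403110, plus strand: ctactgccgTGGGAAgcctaCATCTGccca
Nr5a2, chr1:136953673-136953702, minus strand: cagcttCACCTGatggaatgttCAAGTGgg
Bhlha15, chr5:144190078-144190107, plus strand: cccaaggcCAGGTGtcctggcCAGATGcga
Xbp1, chr11:5520497-5520526, plus strand: tgtgaaaatTTCCCAGGTGtgtgtgtgtgt
An E-box lay in 5 of the 6 windows, Ptf1a's being without one, and in 72.3% of all 32851 promoter windows. A TTCCCA box lay in 3 of the 6 windows, those of Ptf1a, Rbpjl and Xbp1, and in 25.6% of all windows. In the Xbp1 stretch the TTCCCA box and an E-box overlap. Rbpjl alone had both with at most 12 bases between them, 5 bases apart, against 3.43% of all windows, and this spacing rule was chosen after its window was seen. CATATG, the E-box preferred by BHLHA15, was in 0 of the 6 windows and 3.92% of all. The NR5A2 site core AAGGTCA was in 0 of 6 and 4.72%, and its variant AAGGCCA in 1 of 6, that of Bhlha15, and 6.20%. ACGTGG, the core of the XBP1 site, was in 0 of 6 and 8.31%, and 2 parts of the ER stress element, CCAAT and CCACG, were in 2 and 3 of 6 against 37.4% and 32.8%. These matches are letters in a window, at about the shares that promoters in general hold for the commoner motifs, and no binding was measured.

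All levels below are log2 signal, means carry the standard deviation (SD) over 3 arrays, and changes carry the standard error (SE) of the limma fit. A gene was called at a Benjamini-Hochberg adjusted p under 0.05 together with an absolute log2 change of at least 1. A background level of 3.62 was taken from 1390 olfactory and vomeronasal receptor genes, as the 95th percentile of their group means, with earlier results of these data known. A fold against a group at or under this level is given as a lower bound, computed against it.

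Adult cells had the highest mean for every member and tumor cells the lowest, although for Bhlha15 tumor cells and ADM did not differ beyond their spread. Against adult cells, 4 of the 5 members were called lower in ADM cultures, where 4.22% of all genes were called lower. In embryonic cells it was 2 of 5, beside 2.61% of all genes, and in tumor cells 5 of 5, beside 5.96%. No member was called higher in any of the 6 comparisons. The members differed in the group that had lost them. In ADM, Bhlha15, Rbpjl and Ptf1a kept 1.69%, 4.41% and 12.8% of their adult signal, and Nr5a2 and Xbp1 kept 33.4% and 63.0%. In tumor cells Nr5a2 and Ptf1a lay at background.

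**Figure D1:**
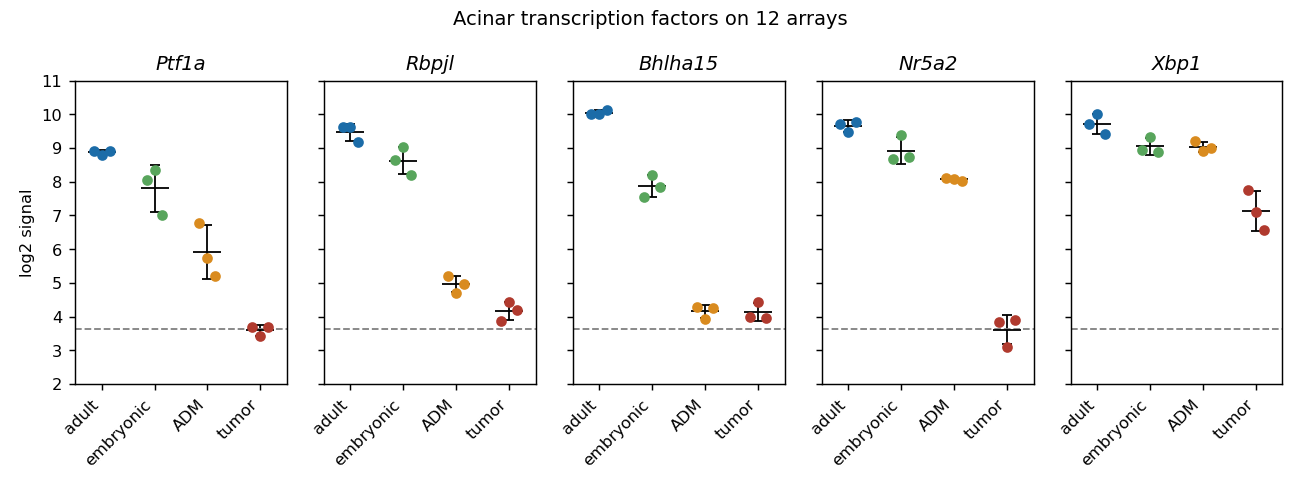
Log2 signal of the 5 transcription factor genes on each of 12 arrays, with the mean and SD of 3 arrays per group; the dashed line is the background level of 3.62. Bhlha15 and Rbpjl drop in ADM cultures, Nr5a2 drops in tumor cells, Ptf1a steps down from group to group, and Xbp1 stays above 6.5 on every array.

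Ptf1a, the bHLH subunit that gives PTF1 its tissue specificity, measured 8.92, 8.80 and 8.92 on the adult arrays and 8.04, 8.34 and 7.02 on the embryonic arrays. It measured 6.78, 5.75 and 5.21 in ADM and 3.68, 3.41 and 3.70 in tumor cells. The 4 groups did not overlap, and their order was adult, embryonic, ADM, tumor. The means were 8.88 ± 0.0693 (SD, n = 3), 7.80 ± 0.692, 5.91 ± 0.798 and 3.60 ± 0.162, so that the middle groups were also the most variable. In ADM it fell by 2.97 ± 0.36 (SE, n = 3 per group; limma adjusted p = 2.96e-05), to 12.8% of the adult signal. Tumor cells lay at background, with 94.5% of the receptor genes' group means below them. The loss in tumor cells was at least 38.2-fold against adult cells (limma adjusted p = 9.88e-08) and at least 4.89-fold against ADM (limma adjusted p = 0.000632). From embryonic cells to ADM it fell by 1.89 ± 0.36 (limma adjusted p = 0.00223).

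The smaller difference between embryonic and adult Ptf1a, which fell by 1.08 ± 0.36 (limma adjusted p = 0.0393), rested on few arrays. It was no longer called without any 1 of 7 arrays. Without adult replicate 1, 2 or 3 the change was -1.06, -1.12 or -1.06, with limma adjusted p of 0.083, 0.0714 and 0.0858. Without embryonic replicate 1 it was -1.20 (limma adjusted p = 0.0611) and without embryonic replicate 3, the array at 7.02, it was -0.69 (limma adjusted p = 0.156). Without ADM replicate 2 or tumor replicate 3 it stayed at -1.08 with limma adjusted p of 0.0503 and 0.0504, because the fit pools its spread over all groups.

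The second Ptf1a probe set, 17382054, was dim and was not used for the levels above. It measured 4.22, 4.91 and 4.47 in adult, 3.98, 4.44 and 4.10 in embryonic, 3.71, 3.16 and 3.22 in ADM and 3.33, 3.43 and 3.15 in tumor cells. It kept the order of the 4 group means, but its ADM and tumor arrays overlapped and both group means lay under the background level. With the mean of both probe sets, the changes were -2.07 in ADM, -3.26 in tumor cells against adult and -1.19 in tumor cells against ADM. They were -2.54 in tumor against embryonic cells and -0.72 in embryonic against adult cells, and the last was then not called.

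Rbpjl, the acinar form of the DNA-binding RBPJ subunit, measured 9.61, 9.62 and 9.17 in adult and 8.63, 9.02 and 8.21 in embryonic cells. It measured 5.21, 4.71 and 4.97 in ADM and 3.87, 4.42 and 4.20 in tumor cells. Freshly isolated cells of both ages stood far above the cultured cells, with a gap of 3.00 between the lowest embryonic and the highest ADM array. In ADM Rbpjl fell by 4.50 ± 0.23 (limma adjusted p = 1.36e-08), to 4.41% of the adult signal, and it fell by 3.66 ± 0.23 from embryonic cells to ADM (limma adjusted p = 1.18e-07). In tumor cells it fell by 5.30 ± 0.23, which is 39.5-fold (limma adjusted p = 1.47e-09). The step from ADM to tumor cells was small. The change was -0.80 ± 0.23 (limma adjusted p = 0.0295), with no overlap of the arrays but under the fold minimum. In embryonic cells the change was -0.85 ± 0.23 (limma adjusted p = 0.0137), also under the fold minimum. Without embryonic replicate 2 it was -1.05 (limma adjusted p = 0.00635) and was called. Under cyclic loess normalization it was -1.11 (limma adjusted p = 0.00238) and was called too.

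None of the partners that complete the trimer was called lower than in adult cells. Rbpj, the Notch effector that Rbpjl replaces, measured 5.77 ± 0.467 in adult, 6.91 ± 0.337 in embryonic, 6.77 ± 0.182 in ADM and 7.59 ± 0.430 in tumor cells. It rose by 1.81 ± 0.27 in tumor cells (limma adjusted p = 9.93e-05), where 14.0% of all genes were called higher. It rose by 1.14 ± 0.27 in embryonic cells (limma adjusted p = 0.00597), beside 10% of all genes, though quantile normalization gave 0.75 and cyclic loess 0.88 with no call. Of the 4 partners measured, Rbpj, Tcf3, Tcf4 and Tcf12, limma called 0 in ADM, where 4 of 4 had an unadjusted p under 0.05 and a positive change. Beside that, 12.5% of all genes were called higher in ADM. Tcf3, which encodes the E proteins E12 and E47, rose by 1.53 ± 0.23 in tumor cells (limma adjusted p = 0.00013) and was not called there under quantile normalization, at 0.99. It rose by 1.01 ± 0.23 in embryonic cells (limma adjusted p = 0.00544), with no call under quantile normalization, at 0.60, or cyclic loess, at 0.73. The median change over the 4 partners was 0.61 in ADM, 0.92 in embryonic and 1.13 in tumor cells, beside medians over all genes of -0.11, -0.09 and -0.09. Over 11 housekeeping genes the medians were 0.83, 0.45 and 0.93, and a rise particular to the partners was not tested. Tcf4 measured 6.65 in adult, 7.49 in embryonic, 7.25 in ADM and 6.44 in tumor cells, and from embryonic to tumor cells it fell by 1.05 (limma adjusted p = 0.00173). In tumor cells Rbpjl was thus lower and Rbpj higher than in adult cells.

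Nr5a2 measured 9.71, 9.46 and 9.78 in adult and 8.66, 9.38 and 8.73 in embryonic cells. It measured 8.11, 8.08 and 8.02 in ADM and 3.84, 3.11 and 3.89 in tumor cells. The ADM arrays lay within 0.09 of each other and closer to the acinar cells than to the tumor cells. In ADM it fell by 1.58 ± 0.23 (limma adjusted p = 0.000129), to 33.4% of the adult signal. In tumor cells it lay at background, with a mean of 3.61 ± 0.437 (SD, n = 3) and 94.8% of the receptor genes' group means below it. That loss was at least 65.2-fold against adult cells (limma adjusted p = 4.68e-10) and at least 21.8-fold against ADM (limma adjusted p = 2.92e-08). Of the 5 members, 3 were called lower in tumor cells than in ADM, namely Nr5a2, Ptf1a and Xbp1, beside 5.07% of all genes. Embryonic cells stood between adult and ADM, with a change of -0.73 ± 0.23 from adult cells (limma adjusted p = 0.0303) and -0.85 ± 0.23 from embryonic cells to ADM (limma adjusted p = 0.0192). Neither reached the fold minimum, and the second did under housekeeping centring, at -1.18 (limma adjusted p = 0.00357).

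Nr0b2, which encodes the corepressor SHP and is a known NR5A2 target, measured 6.89 in adult, 6.29 in embryonic, 5.13 in ADM and 3.79 in tumor cells. It fell by 1.76 in ADM and by 3.11 in tumor cells, and by 1.34 between ADM and tumor cells. The second value is limited by the background level, and the difference between both falls was not tested.

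Bhlha15 measured 10.01, 10 and 10.13 in adult and 7.56, 8.21 and 7.83 in embryonic cells. It measured 4.28, 3.94 and 4.25 in ADM and 4.0, 4.44 and 3.95 in tumor cells. It was the member lost most deeply in ADM, and its ADM and tumor arrays overlapped. In ADM it fell by 5.89 ± 0.19 (limma adjusted p = 3.29e-10), to 1.69% of the adult signal, which ranked 19 from the lowest of 22180 changes. The change from ADM to tumor cells was -0.03 ± 0.19 (limma adjusted p = 0.964), with no settled sign across arrays or scalings. Both groups lay just above the background level, at 4.16 ± 0.188 and 4.13 ± 0.270 (SD, n = 3), so a further loss could hardly have been seen. Tumor cells were 60.4-fold below adult cells (limma adjusted p = 1.4e-10).

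Bhlha15 was also the member that most clearly separated embryonic from adult acinar cells. It fell by 2.18 ± 0.19 in embryonic cells (limma adjusted p = 2.91e-06), to 22.1% of the adult signal, and the arrays of the groups were 1.79 apart. The call held without any 1 array, with changes from -2.35 to -2.03. From embryonic cells to ADM it fell by a further 3.71 ± 0.19 (limma adjusted p = 2.05e-08). Against embryonic cells, 3 of the 5 members were called lower in ADM, Bhlha15, Rbpjl and Ptf1a, beside 4.91% of all genes. In tumor cells all 5 were called lower than in embryonic cells, beside 7.80%.

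Xbp1 measured 9.70, 10.01 and 9.41 in adult and 8.94, 9.33 and 8.88 in embryonic cells. It measured 9.21, 8.92 and 8.99 in ADM and 7.75, 7.10 and 6.56 in tumor cells. Embryonic and ADM arrays overlapped and lay just below the adult arrays, by gaps of 0.08 and 0.20. The change in ADM was -0.67 ± 0.26 (limma adjusted p = 0.0621) and that in embryonic cells -0.66 ± 0.26 (limma adjusted p = 0.0752). Neither was called in any alternative, and an adjusted p above the threshold does not show that the levels were equal. Embryonic and ADM means were 9.05 and 9.04, a change of -0.01 ± 0.26 (limma adjusted p = 0.991). In tumor cells Xbp1 fell by 2.57 ± 0.26 against adult cells (limma adjusted p = 3.75e-06), a 5.94-fold loss, and by 1.90 ± 0.26 against ADM (limma adjusted p = 0.000204). It was the one member that stayed clearly above background in tumor cells, with a mean of 7.14 ± 0.596 (SD, n = 3). The arrays measure total Xbp1 RNA and give no value for its splicing, which makes the active factor.

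To compare depth between genes, each change was set against the distance from that gene's adult mean to the background level. In ADM, Bhlha15 had covered 91.7% ± 2.93 (SD, n = 3) of that distance, Rbpjl 77.1% ± 4.28, Ptf1a 56.4% ± 15.2, Nr5a2 26.2% ± 0.76 and Xbp1 11% ± 2.49. The ADM arrays thus kept a graded order, with Ptf1a the most variable. In tumor cells the shares were 101% ± 3.08 for Ptf1a, 100.2% ± 7.25 for Nr5a2, 92.1% ± 4.20 for Bhlha15, 90.8% ± 4.74 for Rbpjl and 42.2% ± 9.80 for Xbp1. There 4 members had run to the bottom of the scale, where their order can no longer be read, and Xbp1 had gone less than halfway. In embryonic cells the shares were 33.9% ± 5.08 for Bhlha15, 20.5% ± 13.2 for Ptf1a, 14.5% ± 6.93 for Rbpjl, 12.1% ± 6.59 for Nr5a2 and 10.8% ± 4.02 for Xbp1.

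**Figure D2:**
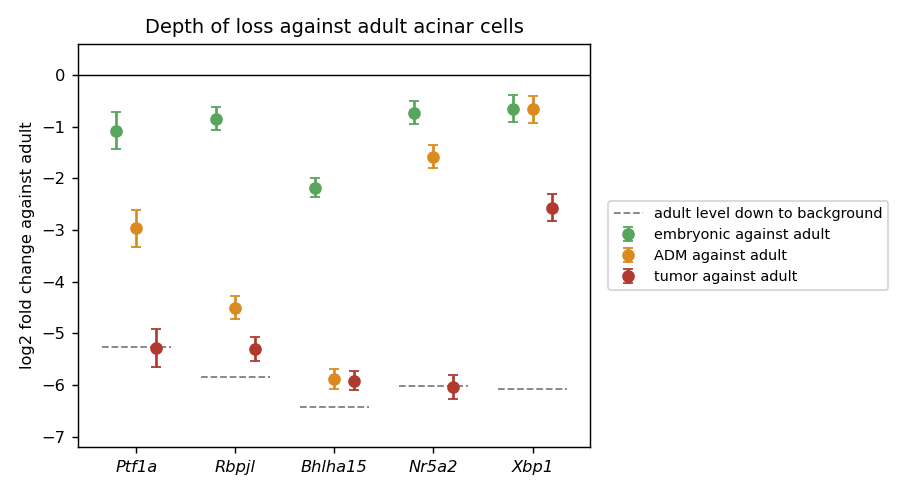
Log2 change of each transcription factor gene against adult acinar cells in embryonic cells, ADM cultures and tumor cells (points, with the SE of the fit, n = 3 arrays per group); the dashed line marks how far each gene could fall before reaching background. In ADM the changes run from -0.67 for Xbp1 to -5.89 for Bhlha15, and in tumor cells 4 of the 5 genes lie near their dashed line.

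The order was tested on the difference between 2 members on each array, which does not depend on the scale of an array. With 3 arrays against 3, a two-sided exact permutation test cannot go below p = 0.1, so no pair could pass 0.05, and over the 30 pairs tested the smallest adjusted p was 0.143. In ADM all 10 pairs reached that smallest p, which means only that the arrays of ADM and adult cells did not overlap. How often pairs of other genes separate in this way was not tested, so the counts of pairs have no share over all genes beside them. Bhlha15 had lost 1.39 more than Rbpjl on the log2 scale, Rbpjl 1.54 more than Ptf1a, Ptf1a had a change -1.39 below that of Nr5a2, and Nr5a2 one -0.91 below that of Xbp1. With the mean of the Ptf1a probe sets, Ptf1a and Rbpjl differed by 2.44 and still did not overlap, but Ptf1a and Nr5a2 differed by -0.49 with overlapping arrays (exact p = 0.3), so the place of Ptf1a before Nr5a2 rests on its brighter probe set. In embryonic cells 4 of the 10 pairs reached the smallest p, those with Bhlha15. In tumor cells the 4 pairs with Xbp1 reached it, with Xbp1 losing least. The pairs among the other 4 members are not read there, since those members lay at or near background.

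Across the 12 arrays Rbpjl followed Bhlha15 with Pearson's r = 0.973 and Nr5a2 followed Xbp1 with r = 0.943, while Bhlha15 and Xbp1 reached only 0.687. These values, and those for other genes here, describe likeness over 4 groups of arrays that share a processing, and carry no test. Over all named genes, those most like Bhlha15 were Slc39a5, a zinc transporter gene (r = 0.996), Tent5c, which encodes a poly(A) polymerase (0.993), Gabra4 (0.992), Lgals12 (0.991) and Klb, the coreceptor of FGF21 (0.991). Slc39a5 ran from 10.03 in adult through 7.93 in embryonic to 3.84 in ADM and 4.10 in tumor cells, nearly the course of Bhlha15. Those most like Rbpjl were Erich5 (r = 0.995), Gnmt, the glycine N-methyltransferase gene (0.994), Aqp12 (0.991), the protein disulfide isomerase gene P4hb (0.991) and Serpini2 (0.990). Aqp12, a water channel gene of acinar cells, went from 11.91 and 10.37 in adult and embryonic cells to 5.06 and 3.93 in ADM and tumor cells. Ptf1a was most like Serpini1 (0.990), Erp27 (0.987), Bmp7 (0.985), Cbs (0.978) and Elapor1 (0.978). Nr5a2 was most like Serpinb1a (0.996), Prss8 (0.990) and 3 digestive enzyme or cofactor genes, Clps (0.985), Cpb1 (0.984) and Try4 (0.984). Xbp1 was most like Tacc1 (0.983), Mt1 (0.977), Camsap3 (0.977), Atp8b1 (0.974) and Prr15l (0.973). Atp8b1, a phospholipid flippase gene, kept 7.71 in ADM beside 8.43 in adult cells and dropped to 3.99 in tumor cells.

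The genes that these factors are known to drive were read from lists written from general knowledge. Against adult cells, 4.22% of all genes were called lower in ADM, 2.61% in embryonic and 5.96% in tumor cells. Digestive enzyme and granule genes, the shared targets of PTF1 and NR5A2, were called lower for 19 of 21 measured in ADM, with a median change of -3.80. The largest falls were those of chymotrypsin C, Ctrc, by 7.07, the granule lectin gene Zg16, by 6.63, and the amylase gene Amy2b, by 6.50. Chymotrypsinogen Ctrb1 (-0.20) and carboxypeptidase Cpa1 (-0.72) were the 2 not called, and the trypsinogen Prss2 fell by 1.18 and was not called under quantile normalization, at -0.98. Ctrb1 and Cpa1 lay near the top of the measured scale, at 13.32 and 13.13 in adult and 13.12 and 12.41 in ADM cells. Signal can be compressed there, so their small changes do not show how much RNA was lost, and compression was not tested. Sycn, Cela1 and Ctrl, with adult means of 13.11, 13.23 and 13.31, fell to 9.08, 8.44 and 8.11 in ADM. In tumor cells 21 of 21 were called lower than in adult cells, with a median of -8.94, and 20 of 21 were lower than in ADM, with a median of -5.68. With every mean under the background level raised to it, these medians were -8.80 and -5.04. Ctrb1 fell by 8.60 and Cpa1 by 8.45 in that second step, in which Nr5a2 and Ptf1a reached background. Ctrc was the gene not called there (-0.36), having already come to 4.28 in ADM. In embryonic cells 6 of 21 were called lower, with a median of -0.56. Ctrc fell by 4.73 there, but its embryonic level of 6.62 had an SD of 2.45 over 3 arrays. Close paralogs of enzyme genes can share probes, so single values within these families are uncertain.

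Of 7 genes that BHLHA15 is known to act on, 4 were called lower and 1 higher in ADM, beside 4.22% and 12.5% of all genes. Of the granule GTPase genes, Rab26 fell by 3.55 and Rab3d fell by 2.63, the gap junction gene Gjb1 fell by 2.83 and the coatomer gene Copz2 fell by 2.98. Cdkn1a, the cell cycle inhibitor p21, rose by 2.44. Between ADM and tumor cells Rab26 (0.30) and Gjb1 (-0.16) were not called, with Rab26 close to background at 4.10 and 4.40, while Copz2 fell by 1.89 and Rab3d by 1.24 in that step. In embryonic cells Rab26 fell by 1.51 and Gjb1 by 1.57. The other 2 measured genes, Atp2c2 and Cplx2, were dim, with adult means of 3.52 and 4.59, and were not called against adult cells in any group.

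The ER genes that XBP1 drives did not follow Xbp1 RNA from group to group. In ADM 13 of 19 measured were called lower and all 19 had a negative change, with a median of -1.47, although Xbp1 itself was not called there. The disulfide oxidase gene Ero1b fell by 5.16, Sdf2l1 by 3.27, Herpud1 by 2.73 and Edem1 by 2.72. The translocon and degradation genes Derl2 (-0.18), Derl1 (-0.23) and Ssr3 (-0.47) were among those not called. Between ADM and tumor cells 5.07% of all genes were called lower, with a median change of 0.06. In that step, where Xbp1 fell by 1.90, limma called 0 of the 19, a count near that share, with a median of -0.16. In that step 5 had an unadjusted p under 0.05, all negative, cyclic loess called 1, Ero1b at -1.05, and housekeeping centring called 2, Ero1b at -1.11 and Dnajb9 at -1.04. Most of the loss of the ER genes thus lay between adult cells and ADM, and most of that of Xbp1 between ADM and tumor cells, a contrast that was not tested as such. In tumor cells against adult cells 15 of 19 were called lower, with a median of -1.94, and in embryonic cells 5 of 19, with a median of -0.65.

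**Figure D3:**
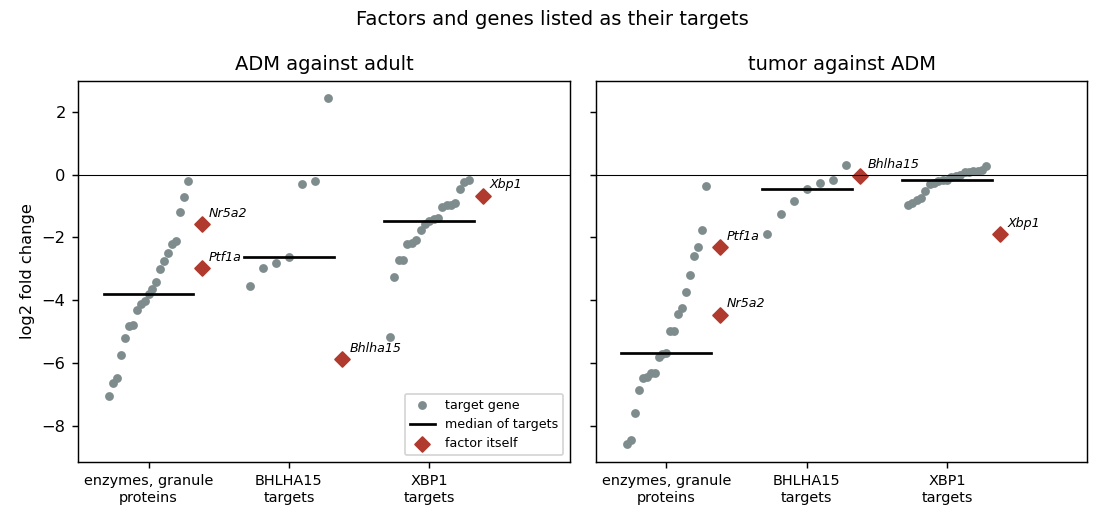
Log2 changes of genes listed as targets (grey points, with their median as a bar) and of the factors themselves (red diamonds), in ADM cultures against adult cells on the left and in tumor cells against ADM on the right. XBP1 targets have a median of -1.47 on the left and -0.16 on the right, while Xbp1 is at -0.67 and -1.90; enzyme and granule genes are low in both panels.

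Among 11 sensors and other factors of the unfolded protein response, 2 were called lower in ADM. Over all genes 4.22% were called lower in ADM and 5.96% in tumor cells. Ern1, the gene of the IRE1 kinase that splices Xbp1 RNA, fell by 1.09, and Creb3l1 by 1.92. In tumor cells Ern1 was not called (-0.42), and 4 of the 11 were called lower than in adult cells, Eif2ak3, the gene of the PERK kinase, by 2.86, Creb3l1 by 2.23, Atf6 by 1.33 and Ppp1r15a by 1.10. Atf6, a second ER stress factor, was not called in ADM at -0.97 and was called under all 3 other scalings, at -1.17, -1.28 and -1.12. Ddit3, the stress factor CHOP, was not called in any group against adult cells (0.23 in ADM).

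On a list of bHLH inhibitors and Notch effectors, which also held Snai2, Twist1 and Zeb1, more genes were called higher than lower, as over all genes. Of 10 measured, 6 were called higher in ADM, 6 in embryonic and 6 in tumor cells, where 1 was called lower, with medians of 1.11, 1.52 and 1.83. Over all genes 12.5%, 10% and 14.0% were called higher, and 5.96% lower in tumor cells, with medians of -0.11, -0.09 and -0.09. Id1 rose by 1.96 in ADM and 2.03 in tumor cells, and Id2 rose by 1.42 and 2.39; the ID proteins bind E proteins and keep them from DNA. Id3 rose by 2.15 in ADM, and between ADM and tumor cells it fell by 2.50. Snai2 rose by 2.28 in ADM and 2.94 in tumor cells and Twist1 by 3.03 in tumor cells. Snai2, Twist1 and Zeb1 are also genes of fibroblasts, whose markers were higher in ADM and embryonic samples too. The part of fibroblasts in the rises of these genes was not tested. In tumor cells, where 6 of 10 fibroblast markers lay at background, Snai2, Twist1 and Zeb1 measured 7.54, 7.46 and 5.86. Adult means were 4.59, 4.43 and 4.05, and in embryonic cells Twist1 was not called (0.07). Twist1 in ADM (1.05) was not called under any of the 3 other scalings, and Zeb1 in ADM (1.16) was not called under cyclic loess, at 0.81. Hes1, a Notch target, was called in tumor cells, where it rose by 1.85, and not in ADM (0.87). Its tumor level had an SD of 1.31 over 3 arrays, and tumor cells against ADM were not called (0.98, limma adjusted p = 0.195). The Notch effector gene Heyl was the one called lower in tumor cells, where it fell by 1.69, and Hey1 was not called there (-0.87). In ADM Hey1 (0.10) and Heyl (-0.60) were not called either, so no Notch effector of the list was called higher there. In embryonic cells Hey1 rose by 1.94. Quantile normalization, cyclic loess and housekeeping centring called 5, 4 and 5 of the 10 higher in ADM.

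Of 13 other transcription factors of the exocrine pancreas, 4 were called lower and 2 higher in ADM, and 7 lower and 2 higher in tumor cells. Over all genes, 4.22% were called lower and 12.5% higher in ADM, and 5.96% and 14.0% in tumor cells. Foxa3 fell by 1.68 in ADM and 3.52 in tumor cells, Gata4 fell by 1.18 and 1.97, and Foxp2, at background in both, was at least 2.92-fold lower. Onecut1, which acts early in pancreas development, fell by 2.31 in tumor cells and was not called in ADM (-0.37). Klf4 rose by 1.97 in ADM, and Pdx1, which marks pancreatic progenitors and beta cells, rose by 1.58 in tumor cells. The other 2 rises, Mecom in ADM (1.20) and Hnf4a in tumor cells (1.05), were lost under quantile normalization (0.74 and 0.51) and cyclic loess (0.80 and 0.54), and that of Hnf4a under housekeeping centring too (0.77). In embryonic cells 3 were called lower and 2 higher, beside 2.61% and 10% of all genes, and Prox1 rose by 2.11.

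Among 11 relatives of the members, the nearest one of Nr5a2, Nr5a1, stayed near background, with means from 3.06 to 3.78, and was not called. The bHLH repressor gene Bhlhe40 rose by 3.01 in ADM and by 2.80 in tumor cells, and Bhlhe41, at background in adult cells, was at least 4.16-fold and 9.47-fold higher. In embryonic cells Neurog3, the bHLH factor of endocrine precursors, was at least 28.4-fold higher than in adult cells, where it lay at background, and Tcf21 rose by 2.54.

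Markers of other cells moved with the groups. The summed linear signal of 7 acinar markers was 52566.5 to 54476.5 on adult, 35242.4 to 44448.1 on embryonic, 14712.3 to 19894.6 on ADM and 91.1 to 125.0 on tumor arrays, where Cpb1, Cel, Zg16 and Gp2 lay at background. The tumor arrays thus hold nearly no acinar marker signal. On ADM arrays the sum rests mainly on Ctrb1 and Cpa1, whose signal can be compressed near the top of the scale, which was not tested. In ADM 5 of the 7 acinar markers were called lower, with a median change of -3.64, so the sum does not measure how much acinar RNA was kept. Of 10 duct markers, 8 were called higher in ADM and 4 in embryonic cells, while tumor cells had 5 higher and 3 lower. Their sum was 12490.6 to 14232.6 on ADM arrays beside 4959.1 to 5208.0 on adult arrays. Of 10 fibroblast and stellate markers, 9 were called higher in ADM and 10 in embryonic cells, with sums of 2809.9 to 6815.5 and 6696.3 to 10680.2 beside 975.9 to 1006.8 in adult cells. One of the 9, Lum in ADM (1.15), was not called under the 3 other scalings. In tumor cells their sum was 141.7 to 188.5, with 6 of 10 at background (Col1a2, Pdgfra, Dcn, Lum, Thy1 and Postn). Embryonic cells also had 7 of 7 endocrine, 7 of 7 endothelial, 7 of 10 immune and 5 of 5 mesothelial markers called higher. Their endocrine sum was 8151.0 to 10244.3 beside 1923.6 to 2820.9, their endothelial sum 1989.5 to 2117.8 beside 423.4 to 497.7 and their immune sum 2075.5 to 3033.5 beside 383.4 to 425.9 in adult cells. Embryonic and ADM arrays thus carried signal of markers of other cells, and the part of other cells in the members' changes was not tested.

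Among the embryonic arrays replicate 2 was the highest for all 5 members and had the lowest fibroblast sum, 6696.3, beside 10680.2 and 9473.6 for replicates 1 and 3. Its acinar marker sum, 35242.4, was the lowest of the 3, beside 35571.7 and 44448.1. Such sums rest mainly on the brightest markers. Among the ADM arrays replicate 1 was the highest for all 5 members and had the highest acinar marker sum, 19894.6, beside 15879.7 and 14712.3. Its fibroblast sum, 5494.0, lay between those of replicates 2 and 3, 2809.9 and 6815.5. Plasma cells also use Xbp1 and Bhlha15, and of their 6 markers Jchain, Tnfrsf17 and Irf4 lay at background in all 4 groups. The summed signal of the 6 was nevertheless 105.0 to 169.5 on adult, 331.0 to 381.9 on embryonic, 1461.9 to 1920.5 on ADM and 1045.4 to 1339.2 on tumor arrays. Sdc1, which epithelial cells also express, rose by 1.74 in embryonic cells, 4.22 in ADM and 3.70 in tumor cells.

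The scaling of the arrays bears on every count above. Over all genes the median change was -0.11 in ADM, -0.09 in embryonic and -0.09 in tumor cells against adult cells, and centring on 11 housekeeping genes moved it to -0.26, 0.09 and -0.38. This centring shifted each array by the median level of the 11 genes. It did not remove their changes against adult cells, whose medians were 0.83, 0.45 and 0.93 before it. Gapdh in ADM rose by 1.53 before and still by 1.38 after it. The share of calls that were higher was 74.7% in ADM and became 59.5% under quantile normalization, 59.4% under cyclic loess and 63.8% under housekeeping centring. In embryonic cells it was 79.3% and became 64.0%, 69.1% and 88.3%, and in tumor cells 70.2%, 57.4%, 53.0% and 50.9%. The losses of Bhlha15, Rbpjl, Ptf1a and Nr5a2 in ADM and of all 5 members in tumor cells were called under each of these scalings. Tumor against ADM, where 5.07% of genes were called lower and 3.28% higher, had 39.3% of calls higher and became 39.8%, 35.4% and 30%.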

How the data were processed

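The values that the authors deposited for the 12 arrays, 1 per probe set, were taken as log2 signal. The log base was inferred from their range, 1.56 to 13.67, and the software and normalization are not given in the sources used here. Of 41345 probe sets, 23521 carried 1 gene symbol, 1814 several and 16010 none, in the platform annotation, and only the first kind was used. For 1082 genes with more than 1 probe set, the one with the highest mean over 12 arrays was taken, which left 22180 genes. No value was changed before testing. All 12 arrays were fitted together with limma 3.58.1 in R 4.3.3, with a mean per group and no replicate block (8 residual and 5.02 prior degrees of freedom). Tests were two-sided, with Benjamini-Hochberg adjustment over all genes of a comparison, and the fit was tested on simulated data. Differences between members used exact permutation tests over arrays in scipy 1.17.1.

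The members and the gene lists were chosen with earlier results of these data known. Named genes were the members, up to 3 called genes with the largest changes of a list, genes a sentence on a member turns on, and the 5 genes of highest Pearson correlation with each member, leaving out predicted genes and olfactory and vomeronasal receptors. Depth cannot be stated for arrays, and the number of arrays limits the precision.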

Additional observations from a re-analysis of the deposited data

How the results depend on the processing

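The members were refitted under 9 other settings and without each of the 12 arrays in turn. Of the values so obtained, 609 kept their direction and their side of the threshold, 10 lost a call, 3 gained one and 8 changed sign. Ptf1a in embryonic against adult cells (-1.08) was not called under housekeeping centring (-0.90), the mean of the probe sets (-0.72) or array weights (-1.03), and ran from -1.35 to -0.69 without 1 array. Rbpjl in embryonic against adult cells (-0.85) was called under cyclic loess (-1.11) and ran from -1.05 to -0.64 without 1 array. Nr5a2 in ADM against embryonic cells (-0.85) was called under housekeeping centring (-1.18). Bhlha15 in tumor cells against ADM (-0.03) turned sign under quantile normalization (0.055) and ran from -0.18 to 0.063 without 1 array, and Xbp1 in ADM against embryonic cells (-0.01) ran from -0.10 to 0.13. The cause was not tested. The 18 correlations of same-numbered arrays of different groups ran from -0.048 to 0.128, beside -0.122 to 0.11 for the 36 other-numbered pairs. They showed no sign of pairing, but they took in dim genes and cannot show that the arrays were unpaired. The replicate block changed no member's call, with Bhlha15 in ADM at -5.89 (limma adjusted p = 9.6e-09).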
